A study of Homo sapiens with 46 samples.

Results

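Gene expression was compared between HCT116 Ku80-AID cells kept for 2 days on a CDK4/6 inhibitor with Ku80 degradation and the same clones kept for 2 days on the inhibitor alone. The comparison was set by the labels: the CDKi+IAA libraries of clones 1 and 9 against the CDKi libraries of clones 1 and 9, paired by clone, which is 4 of the 46 libraries of the series. All 18877 genes with enough counts, of 61228 in the table, were tested. HCT116 is a human colon carcinoma line, and in Ku80-AID cells the Ku80 protein carries an auxin-inducible degron, a tag that lets an added auxin trigger its breakdown. The cells with degradation received 100 µM indole-3-acetic acid (IAA, the auxin) and 0.5 µg/mL doxycycline together with the inhibitor. The controls received the inhibitor without IAA and doxycycline, so the difference between the groups holds Ku80 loss and both of these compounds, which cannot be told apart. The name and dose of the inhibitor are not given in the labels. Clones 1 and 9 are single clones, and the labels do not say whether the libraries of 1 clone came from separate cultures, so p-values here measure the spread between libraries. That spread was estimated over all 32 degron libraries of the series. These include other times and treatments, and Ku80-AID clones in which the MAVS gene was knocked out.

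Ku is a ring-shaped dimer of Ku70 and Ku80 that binds DNA ends, recruits the DNA-PK catalytic subunit and starts non-homologous end joining. It is abundant in human cells and also binds structured RNA. CDK4 and CDK6 phosphorylate the retinoblastoma protein in G1, and their inhibition keeps E2F target genes low and slows entry into S phase. RNA sensors of the RIG-I family signal through MAVS to induce interferon and interferon-stimulated genes, whose promoters are read by interferon-activated transcription factors. The inhibitor arm thus asks what Ku80 loss does to the transcriptome in cells kept on such an inhibitor. Whether the inhibitor slowed the cycle of these cells was not tested here.

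Library totals were 12.7 M and 19.2 M counts in the control libraries of clones 1 and 9 and 14.4 M and 14.7 M in the IAA libraries. Levels are given below as CPM, counts scaled to a common library size and by TMM factors, which lay between 0.904 and 0.990 in these 4 libraries. They belong to a set of 8 libraries whose titles give time in hours, and in which 23991 to 25790 genes had a count, against 17697 to 21956 in the Ku80-AID libraries titled in days with intact MAVS. Mitochondrially encoded genes took 7.49 and 7.73% of counts in the controls and 6.83 and 7.93% with IAA. The proliferation marker MKI67 stood at 434 and 509.6 CPM in the inhibitor controls, against 851 and 897 CPM in the 1-day DMSO libraries, which differ in time as well. Of 18 colon epithelial markers 12 had counts. Their summed level, in CPM without TMM factors, was 3480 to 4060 in the controls and 3700 to 3930 with IAA. Most of it came from the keratins KRT8, KRT18 and KRT19, at 1640, 673 and 785 CPM in the control of clone 1. CDX2 stood at 14.6 and 14.9 CPM and VIL1 at 5.21 and 2.55 CPM in the controls of clones 1 and 9. MUC2, LGALS4 and GPA33 stood at or under 0.474 CPM in all 4 libraries. Of the colon markers CDX1, ASCL2, TFF3, FABP1, CDH17 and CEACAM5 stood at 0. Markers of HEK293, another cell line of the series, summed on the same scale to 61.4 to 62 CPM in the controls and 55.1 to 59.5 CPM with IAA. Blood and stromal markers, also without TMM factors, summed to 24.2 to 31.2 CPM in the controls and 34.3 to 45.9 CPM with IAA. This was over 11 of 15 markers, with PTPRC, CD3E, COL1A2 and PECAM1 at 0.

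With IAA, edgeR's quasi-likelihood test called 165 genes at an adjusted p under 0.05, which is 0.874% of those tested: 104 higher (0.551%) and 61 lower (0.323%). Of these, 20 were at least 2-fold higher and 10 at least 2-fold lower, and the median log2 change over all genes was -0.00742. An unadjusted p under 0.05 was reached by 999 genes that were higher (5.29%) and 859 that were lower (4.55%). In each of the 165 called genes both IAA libraries lay on the same side of both controls and both clones moved the same way. Over all tested genes 69.1% moved the same way in both clones and the groups did not overlap in 49.1%, so this by itself is a weak mark. The number of calls depended on which libraries set the spread. Without one of the 4 libraries, which leaves an arm with a lone library assumed to vary like the other groups, edgeR called 6 genes (control, clone 1), 7 (control, clone 9), 6 (IAA, clone 1) and 31 (IAA, clone 9). CEMIP, IFI6 and EIF3B were called in all 4 of those fits and 133 of the 165 in none, while all 165 kept their sign and an unadjusted p under 0.05 in each. With the spread taken from the 8 libraries titled in hours edgeR called 3319 genes, among them all 165, and without the clone block 78, all of them among the 165.

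**Figure D1:**
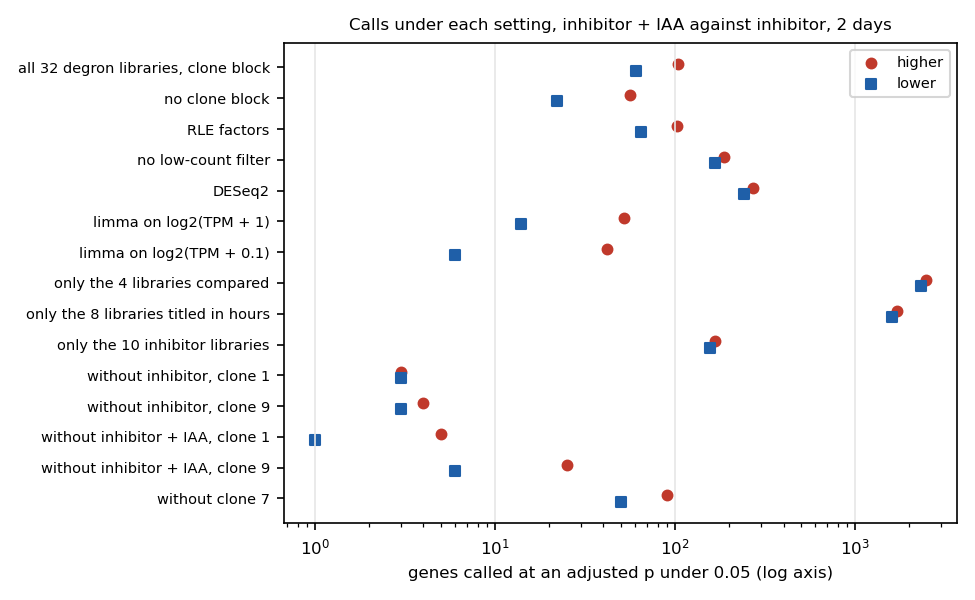
Genes called at an adjusted p under 0.05 for inhibitor + IAA against inhibitor at 2 days, under each setting, on a log axis; circles are genes called higher and squares genes called lower. The uppermost setting holds the 104 higher and 61 lower genes reported here, and leaving out 1 library leaves 6 to 31 calls in all.

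Interferon-stimulated genes formed the largest listed group among the higher genes. Of 71 tested, 11 rose and none fell (15.5% called higher against 0.551% of all genes), and 34 were higher at an unadjusted p under 0.05. A log2 change above 0 was measured in 67 of the 71, with a median of 0.63 against -0.00742 over all genes. Members at 0 in 1 group were GBP1, IFI44L, MX2 and OAS2, and taking 3 counts per group in place of 0 for these gave a median of 0.57. Among the called members were IFI6, RIGI, OASL, IFIT1, SAMD9, ISG15, HELZ2, SP110, STAT2 and DTX3L, where HELZ2, SP110 and DTX3L fall outside the naming rule and are named after their values were seen. The list of calls was short without a library: 1 to 7 members in the 4 such fits, with medians of 0.47 to 0.75.

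The promoters of IFI6, IFIT1, ISG15 and SAMD9 are shown because these called genes share the letters read by interferon-activated factors. Each run is the 250 bases before the gene's annotated start, 5′ to 3′ along the gene's own strand, from RefSeq (GRCh38.p14), with capitals on GAAA, any 2 bases and GAAA again, or the reverse complement, the core of the interferon-stimulated response element.
IFI6 (chr1:27672193-27672442, minus strand): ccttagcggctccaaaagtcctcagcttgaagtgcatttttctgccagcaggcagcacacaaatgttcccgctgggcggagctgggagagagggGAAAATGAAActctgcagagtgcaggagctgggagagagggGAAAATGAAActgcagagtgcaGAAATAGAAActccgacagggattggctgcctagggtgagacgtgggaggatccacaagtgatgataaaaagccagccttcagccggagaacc
IFIT1 (chr10:89392373-89392622, plus strand): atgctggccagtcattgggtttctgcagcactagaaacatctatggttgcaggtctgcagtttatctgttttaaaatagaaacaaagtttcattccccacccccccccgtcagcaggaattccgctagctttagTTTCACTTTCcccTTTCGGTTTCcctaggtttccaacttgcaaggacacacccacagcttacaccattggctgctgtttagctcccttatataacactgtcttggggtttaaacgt
ISG15 (chr1:1013247-1013496, plus strand): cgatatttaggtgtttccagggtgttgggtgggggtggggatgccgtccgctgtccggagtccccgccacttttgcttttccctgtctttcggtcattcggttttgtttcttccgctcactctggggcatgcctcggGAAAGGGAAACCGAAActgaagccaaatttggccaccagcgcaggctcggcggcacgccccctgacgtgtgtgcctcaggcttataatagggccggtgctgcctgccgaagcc
SAMD9 (chr7:93117980-93118229, minus strand): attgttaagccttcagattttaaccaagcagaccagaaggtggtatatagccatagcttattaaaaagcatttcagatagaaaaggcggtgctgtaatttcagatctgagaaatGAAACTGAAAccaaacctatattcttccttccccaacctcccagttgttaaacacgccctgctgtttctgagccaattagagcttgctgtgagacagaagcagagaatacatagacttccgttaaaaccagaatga
IFI6 held 3 matches, IFIT1 2, ISG15 2 that overlap each other, and SAMD9 1. Within windows from 250 bases before to 50 bases after the start, both strands searched, the letters stood in 3.57% of 35116 promoters and in 2.78% of the 12138 belonging to tested genes. Of the 11 called interferon-stimulated genes 9 had a promoter in the table, and 5 of these (55.6%) held the letters, the fifth being DTX3L. RIGI, STAT2, SP110 and HELZ2 had no match in this window. Among all genes called higher 5 of 84 promoters held them (5.95%), and among those called lower 4 of 50 (8%).

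IFI6, a mitochondrial interferon-induced protein, stood at 9.23 and 10.5 CPM in the controls of clones 1 and 9 and at 51.4 and 36.7 CPM with IAA. Both IAA libraries were more than 3-fold above their own control, and the fit gave a log2 change of 2.12 ± 0.23 (SE; edgeR adjusted p = 3.13e-05). RIGI, which encodes the sensor of 5′-triphosphate RNA, went from 10.3 and 7.36 CPM to 37.5 and 28.2 CPM (1.90 ± 0.25, edgeR adjusted p = 6.18e-04). The groups were far apart for both genes, and clone 1 reached the higher level. OASL, an interferon-induced relative of the oligoadenylate synthetases, rose from 3.82 and 4.60 CPM to 18.5 and 13 CPM (1.86 ± 0.32). IFIT1, which binds RNA with foreign 5′ ends, rose from 6.07 and 6.10 CPM to 17.7 and 14.2 CPM (1.40 ± 0.23). SAMD9, an antiviral growth-restricting factor, rose from 16.7 and 19.7 CPM to 55.9 and 36.9 CPM (1.32 ± 0.22). For these 3 genes the control libraries lay close together and the IAA libraries spread more, with clone 1 above clone 9. ISG15, the interferon-induced ubiquitin-like modifier, rose from 38.1 and 41.2 CPM to 94.7 and 85.8 CPM (1.18 ± 0.25, edgeR adjusted p = 0.0251). STAT2, a carrier of the interferon receptor signal, rose less, by 0.67 ± 0.12 on the log2 scale. It stood at 56.4 and 46.9 CPM without IAA and 88.9 and 75.6 CPM with it.

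Over the list the clone 1 response was larger than that of clone 9 in 47 of 71 genes, with medians of 0.68 and 0.45 (log2 ratio of CPM). Over all tested genes clone 1 was above clone 9 in 55%. Other members of the list were not called. USP18, which removes ISG15 from proteins and damps the interferon receptor, read 5.57 and 5.46 CPM in the controls and 5.56 and 6.47 CPM with IAA, and the groups overlapped. OAS3, which makes the activator of RNase L, read 50.2 and 58.0 CPM against 67.5 and 65.9 CPM (0.30 ± 0.14, edgeR adjusted p = 0.443), and the groups did not overlap.

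**Figure D2:**
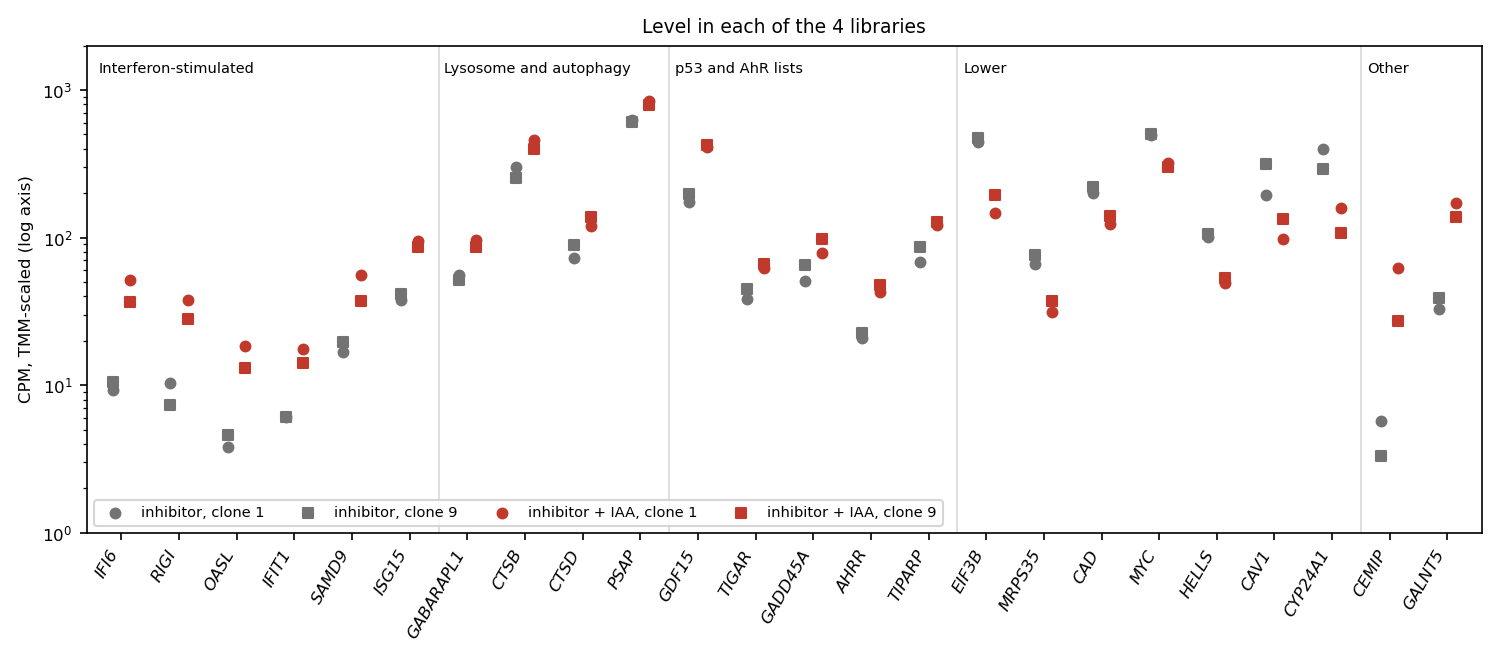
Level of 24 genes in each of the 4 libraries, in CPM scaled by TMM factors on a log axis; grey marks are inhibitor libraries, red marks inhibitor + IAA libraries, circles clone 1 and squares clone 9. In each gene drawn the 2 red marks lie on one side of the 2 grey ones, with the interferon-stimulated genes between 3.82 and 41.2 CPM in the controls and between 13 and 94.7 CPM with IAA.

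The sensors and adaptors that act upstream held few calls. Of 24 cytosolic RNA sensing genes RIGI was called, and the median was 0.17. IFIH1, which encodes the sensor of long double-stranded RNA MDA5, stood at 11.7 and 13.3 CPM without IAA and at 25.3 and 19.0 CPM with it (0.82 ± 0.26, edgeR adjusted p = 0.168). MAVS, their shared adaptor, read 339 and 353 CPM against 399 and 402 CPM (0.21 ± 0.16, edgeR adjusted p = 0.834). Of 16 interferon and interferon receptor genes listed, 11 passed the filter on low counts, and IFNL2 and IFNL3 among these stood at 0 in 1 group. A lack of calls therefore does not show that the interferon genes were unchanged. None of the 11 was called by edgeR or limma, 1 was by DESeq2, and 2 were higher at an unadjusted p under 0.05. These were IFNLR1 (0.69 ± 0.20), the specific chain of the receptor for type III interferons, and its partner IL10RB (0.65 ± 0.23). The 11 cytosolic DNA sensing genes had a median of -0.04, with none called by edgeR, 1 by DESeq2 and 2 lower at an unadjusted p under 0.05. In the antigen presentation list 2 of 21 rose (9.52% called higher against 0.551% of all genes), and 0 or 1 when a library was left out. Among them was HLA-E, which went from 146 and 147 CPM to 217 and 201 CPM (0.52 ± 0.10), a class I chain whose sequence is similar enough to others that reads could be shared.

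Genes of the lysosome and of autophagy, the routes by which cells digest their own content, were higher. Of 26 listed members 5 rose and none fell (19.2% called higher against 0.551% of all genes), and 13 were higher at an unadjusted p under 0.05. A change above 0 was measured in 24, with a median of 0.38. GABARAPL1, which couples cargo to the autophagosome membrane, went from 56.0 and 51.4 CPM to 96.6 and 86.4 CPM (0.77 ± 0.13, edgeR adjusted p = 0.00390). The 2 clones lay close together in both groups. The lysosomal proteases CTSD and CTSB rose by 0.68 ± 0.16 and 0.63 ± 0.11, and PSAP, the precursor of the saposins that help split sphingolipids, by 0.41 ± 0.09. Some lysosomal enzymes outside the list were named by a rule that used their values in these comparisons. They are therefore no further support for the list. MAN2B2, an alpha-mannosidase, rose from 36.2 and 44.5 CPM to 76.6 and 82.7 CPM (0.98 ± 0.14), and NEU1, a sialidase, by 0.62 ± 0.12. SMPD1, the acid sphingomyelinase, rose from 3.74 and 3.39 CPM to 10.7 and 11.2 CPM (1.62 ± 0.39, edgeR adjusted p = 0.0453). For SMPD1 limma on log2(TPM + 1) gave an adjusted p of 0.388. IDS, which degrades glycosaminoglycans, and PINK1, ATG13 and WDR45 of the autophagy machinery also rose, and are named after their values were seen. Without a library the list held 0 to 2 calls, with medians of 0.32 to 0.39. CD68, a lysosomal glycoprotein that also marks macrophages, read 5.32 and 4.95 CPM against 13 and 9.03 CPM (1.08 ± 0.40, edgeR adjusted p = 0.284).

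Among 55 p53 targets 3 rose and none fell (5.45% called higher against 0.551%), and 48 had a change above 0 with a median of 0.35. GDF15, a secreted stress hormone, went from 173 and 196 CPM to 409 and 424 CPM (1.17 ± 0.23, edgeR adjusted p = 0.0129). TIGAR, which limits glycolysis, and GADD45A, a stress sensor of DNA damage, rose by 0.62 ± 0.15 and 0.61 ± 0.14. CDKN1A, the p21 inhibitor of cyclin-dependent kinases, stood at 258 and 327 CPM without IAA and at 468 and 481 CPM with it, apart in both clones but not called (0.70 ± 0.24, edgeR adjusted p = 0.221). MDM2, the ubiquitin ligase of p53, read 179 and 223 CPM against 265 and 247 CPM (0.35 ± 0.13, edgeR adjusted p = 0.268). No p53 target was called in any fit that left out a library, with medians of 0.25 to 0.42.

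Of 10 aryl hydrocarbon receptor targets 2 rose (20% called higher against 0.551% of all genes), 0 or 1 when a library was left out and 0 without the clone block. AHRR, the repressor of that receptor, rose from 20.9 and 22.7 CPM to 42.7 and 47.7 CPM (1.05 ± 0.17), and TIPARP, its mono-ADP-ribosylating brake, rose by 0.69 ± 0.16. CYP1A1, the classical target of the receptor, stood at 2.24 and 2.36 CPM against 4.43 and 6.40 CPM (1.24 ± 0.53, edgeR adjusted p = 0.396). The AHRR promoter held the receptor's letters TNGCGTG, which stand in 7.19% of promoters of tested genes, and that of TIPARP did not. The replication-dependent histone gene H2BC12 rose (1.1 ± 0.26), in a family of near-identical copies whose polyadenylated reads may be split between members, and 13 of 32 such genes passed the filter on low counts. The NF-kB list had 1 call of 30, the protease PLAU, which fell by 0.64 ± 0.14, and a median of 0.09. CXCL8, a neutrophil attractant, stayed at or under 0.640 CPM in all 4 libraries. In the integrated stress response list of 35, GDF15 rose, MTHFD1L, a mitochondrial one-carbon enzyme, fell by 0.47 ± 0.10, and DDIT3 read 8.65 and 9.26 CPM against 12.9 and 19.3 CPM (0.84 ± 0.23, edgeR adjusted p = 0.0821). No call was made by edgeR, limma or DESeq2 among 18 unfolded protein response genes (3 higher at an unadjusted p under 0.05), 27 sterol synthesis genes (1 higher and 2 lower) or 25 cell death genes (2 higher). Of 20 cytokine and chemokine genes GDF15 was the call, with a median of 0.36, and of 23 immediate early genes MYC, with a median of 0.19. The 18 genes of retroelement silencing had a median of -0.20 with no edgeR call, 3 lower by DESeq2 and 5 lower at an unadjusted p under 0.05. The 18 reference genes, kept as a check on scaling, had the same counts and a median of -0.14.

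EIF3B, a scaffold subunit of translation initiation factor 3, had the lowest p among the lower genes. It stood at 446 and 474 CPM in the controls of clones 1 and 9 and at 147 and 195 CPM with IAA, a fall of 1.44 ± 0.15 on the log2 scale (edgeR adjusted p = 2.94e-05). Both IAA libraries were below 50% of their own control. Among the 13 subunits EIF3L also fell, by 0.48 ± 0.11, and the list median was -0.15. MRPS35, a protein of the small mitochondrial ribosomal subunit, fell from 66.0 and 76.8 CPM to 31.2 and 37.3 CPM (-1.06 ± 0.15, edgeR adjusted p = 0.00134). It was the 1 call among 53 mitochondrial ribosomal proteins, whose median was -0.24.

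Genes of ribosome production and nucleotide supply were low as groups with few calls. Of 37 ribosome biogenesis genes 36 had a change below 0 and 12 were lower at an unadjusted p under 0.05, against 4.55% of all genes. Their median was -0.28, and POLR1B, a core subunit of RNA polymerase I, was called (-0.49 ± 0.11). The 18 reference genes leaned the same way. Of these 14 had a change below 0 and 5 were lower at an unadjusted p under 0.05, with a median of -0.14. All 40 cytosolic ribosomal protein genes tested had a change below 0 with a median of -0.22, and RPL3 was called (-0.46 ± 0.09), a gene with processed pseudogenes that could share its reads. In the nucleotide synthesis list all 22 had a change below 0, with a median of -0.37 and 15 lower at an unadjusted p under 0.05. CAD, the multifunctional enzyme that opens pyrimidine synthesis, went from 201 and 219 CPM to 123 and 139.6 CPM (-0.68 ± 0.13, edgeR adjusted p = 0.0129). PAICS of purine synthesis fell by 0.56 ± 0.13. MYC, a transcription factor that drives these programmes, went from 492 and 503 CPM to 320.2 and 302 CPM (-0.68 ± 0.15, edgeR adjusted p = 0.0355), while the median of the 13 MYC network genes was 0.02. In bulk RNA these values cannot tell fewer cells of one state from less RNA per cell.

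Cell cycle genes were lower with IAA. All 56 E2F and replication genes and all 56 mitosis and G2/M genes had a change below 0, where 51% of all genes did, with medians of -0.46 and -0.55. Of these 40 and 41 were lower at an unadjusted p under 0.05, against 4.55% of all genes. After adjustment over all genes 3 and 1 were called, against 0.323% of all genes called lower. HELLS, a chromatin remodeller of replicating cells, went from 102 and 105 CPM to 49.5 and 53.6 CPM (-1.01 ± 0.17, edgeR adjusted p = 0.00390). RFC5, a subunit of the clamp loader, fell by 0.56 ± 0.13 and POLE, the leading strand polymerase, by 0.53 ± 0.13. The call in the mitosis list was LMNB1, a nuclear lamin, which went from 149 and 166 CPM to 86.7 and 102 CPM (-0.74 ± 0.15). MKI67 read 434 and 509.6 CPM against 294 and 374 CPM (-0.50 ± 0.23, edgeR adjusted p = 0.445) and cyclin CCNA2 66.5 and 78.9 CPM against 43.3 and 51.9 CPM (-0.61 ± 0.28, edgeR adjusted p = 0.461). The groups did not overlap for either gene, yet neither was called. The fit on only the 8 libraries titled in hours called 1610 of all 18877 genes lower. With the spread taken from the 8 libraries titled in hours 49 and 55 members of the 2 lists were called, and with each library left out in turn none, at medians of -0.47 to -0.41 and -0.58 to -0.53. The 27 G1 regulators had a median of -0.07 with no call by edgeR, limma or DESeq2, and 3 higher and 4 lower at an unadjusted p under 0.05. CCND1, the cyclin partner of CDK4 and CDK6, read 1075 and 1544 CPM against 1167 and 1398 CPM, and the groups overlapped.

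**Figure D3:**
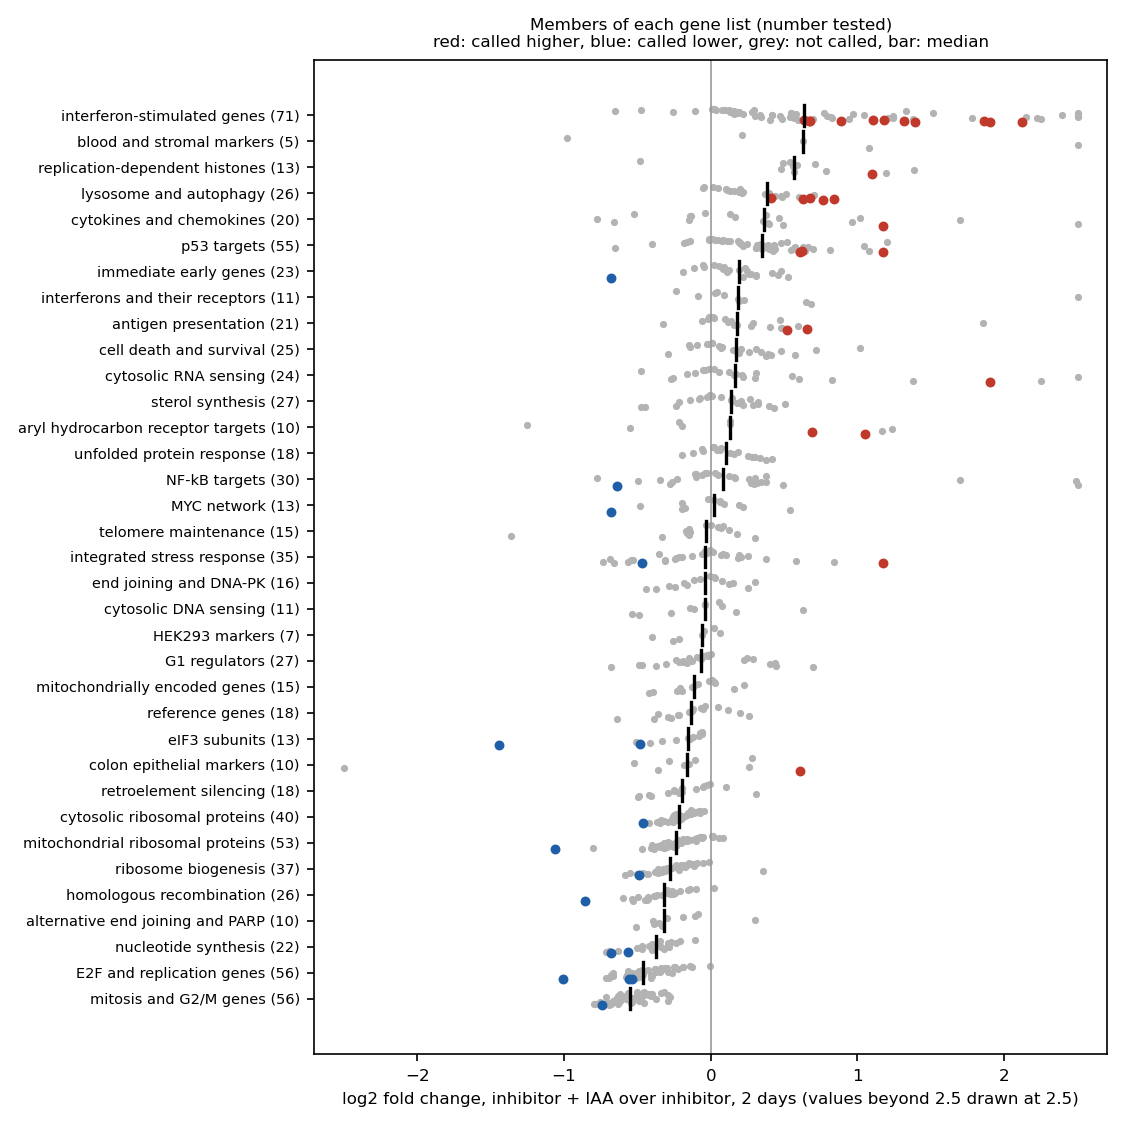
Log2 fold change of inhibitor + IAA over inhibitor at 2 days for the tested members of 35 gene lists, ordered by median, with the number tested in brackets; red points were called higher, blue points called lower, grey points not called, and black bars are medians. The interferon-stimulated list lies highest, with a median of 0.63, and the mitosis and G2/M list lowest, with -0.55 and no member above 0.

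Of the DNA repair genes listed, 1 was called. Of 26 homologous recombination genes 25 had a change below 0, where 51% of all genes did, with a median of -0.31. At an unadjusted p under 0.05, 6 were lower, against 4.55% of all genes. The 1 call is 3.85% of the list, against 0.323% of all genes called lower. It was FANCD2 of the Fanconi pathway, which fell from 58.4 and 65.0 CPM to 30.5 and 37.8 CPM (-0.85 ± 0.17, edgeR adjusted p = 0.0129). Without the clone block no member of this list was called. None of 16 end joining genes was called by edgeR or limma, 1 was by DESeq2, 2 were lower at an unadjusted p under 0.05, and their median was -0.04. The 10 genes of alternative end joining and PARP had a median of -0.32, with 4 lower at an unadjusted p under 0.05, 3 lower by DESeq2 and none called by edgeR. The 15 telomere genes had a median of -0.03, with none called by edgeR, DESeq2 or limma, and 1 higher and 2 lower at an unadjusted p under 0.05. XRCC5, which encodes Ku80, read 346 and 359.9 CPM without IAA and 318 and 313 CPM with it (-0.16 ± 0.16, edgeR adjusted p = 0.949). The degron removes the protein, so this mRNA is no check of depletion. XRCC6, which encodes Ku70, read 916 and 1013 CPM against 674 and 747 CPM (-0.44 ± 0.13, edgeR adjusted p = 0.116). PRKDC, the DNA-PK catalytic subunit, read 1079 and 1123 CPM against 859.5 and 840.1 CPM (-0.37 ± 0.14, edgeR adjusted p = 0.286).

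The largest fold change among the called genes was that of CEMIP, which stands in no list. CEMIP, a secreted protein that depolymerises hyaluronan, went from 5.74 and 3.34 CPM to 62.2 and 27.2 CPM, a log2 change of 3.27 ± 0.28 (9.62-fold, edgeR adjusted p = 1.12e-06). Both IAA libraries were over 8-fold above their own control, and clone 1 stood higher than clone 9 in both groups. GALNT5, which starts mucin-type O-glycans, rose from 32.6 and 39.0 CPM to 172 and 138 CPM (2.11 ± 0.33). Further large rises were WNT9A, a secreted Wnt ligand (1.41 ± 0.30), ATOSB (1.27 ± 0.25) and the collagen receptor MRC2 (1.17 ± 0.26). SMAD3, a transducer of TGF-beta signals, rose from 112 CPM in both controls to 182 and 181 CPM (0.69 ± 0.11, edgeR adjusted p = 0.00215). CDH1, the epithelial cadherin, rose from 82.4 and 73.8 CPM to 135 and 104 CPM (0.61 ± 0.10). PIP4K2C, a phosphoinositide kinase, and WBP1L were among the 10 lowest p-values, at 0.67 ± 0.10 and 0.79 ± 0.11.

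On the lower side CAV1, the coat protein of caveolae, went from 194 and 317 CPM to 97.4 and 133 CPM (-1.13 ± 0.15, edgeR adjusted p = 7.84e-04). The clones differed in level, and both were lower with IAA. CYP24A1, which inactivates vitamin D, went from 399.8 and 292 CPM to 159 and 108 CPM (-1.38 ± 0.23), and ABCC2, an organic anion exporter, from 93.0 and 100.3 CPM to 41.0 and 50.5 CPM (-1.09 ± 0.18). RGS2, which limits G-protein signals, fell by 1.59 ± 0.36 from 22 and 30.3 CPM to 7.60 and 9.67 CPM. SUSD2 and MEIOSIN fell by 1.99 ± 0.48 and 2.19 ± 0.53, at an edgeR adjusted p of 0.0482 and 0.0499. NR2F1, an orphan nuclear receptor, fell by 1.22 ± 0.22, and CDCA7, a partner of HELLS, by 0.91 ± 0.20. WASHC2C, a subunit of an endosomal actin complex, fell by 0.91 ± 0.20 and has a near-identical paralog that could share its reads.

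**Figure D4:**
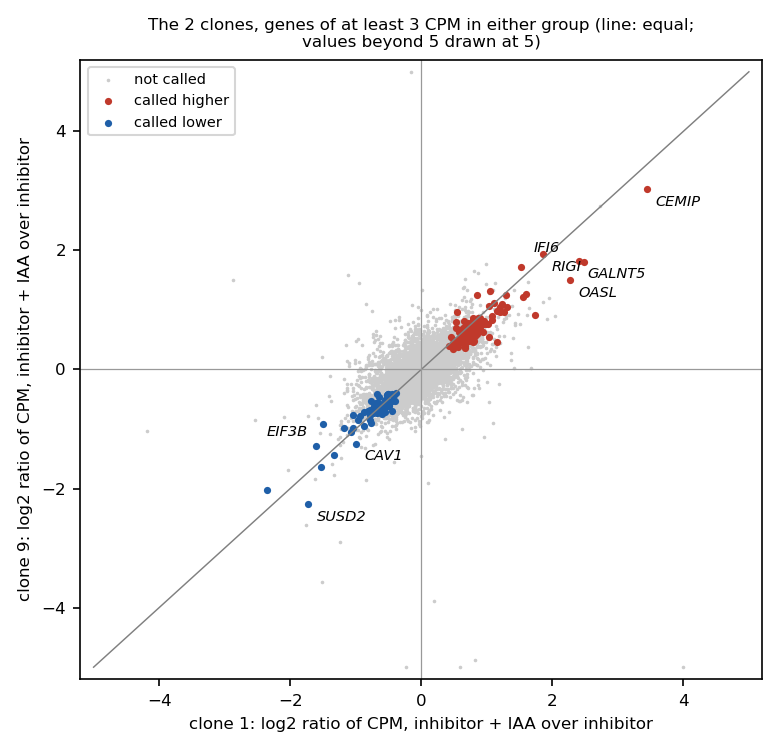
Log2 ratio of CPM with over without IAA in clone 1 (horizontal) and clone 9 (vertical), one point per gene of at least 3 CPM in either group; red points were called higher, blue points called lower, the diagonal marks equal ratios, and values beyond 5 are drawn at 5. All 165 called genes have the same sign in both clones, and CEMIP lies farthest out among them.

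The labels hold 3 further comparisons of IAA with its own control in the Ku80-AID clones with intact MAVS, which share the clones but no libraries with the one described here. These are IAA against DMSO at 1 day and at 2 days without the inhibitor, and CDKi+IAA against CDKi at 4 days. Fitted together, they held 107 called genes (0.567%), 4026 (21.3%) and 2538 (13.4%), the last being 1332 higher (7.06%) and 1206 lower (6.39%). The 2- and 4-day comparisons rest on 3 clones a group. The 165 genes called with the inhibitor at 2 days had the same sign in 165, 165 and 164 cases without the inhibitor, at 4 days with it and at 1 day, against 72.9, 72.7 and 67.9% of all genes. Of them 164, 162 and 52 were called in the same direction there. Those shared calls are 99.4% of the 165 and 4.07% of the calls without the inhibitor, 98.2 and 6.38% at 4 days, and 31.5 and 48.6% at 1 day. The change without the inhibitor was the larger of the 2-day values in 144 of the 165. The share over all genes was not taken, so this count alone does not show a weaker response on the inhibitor. It also sets 3 clones in libraries titled in days against 2 clones in libraries titled in hours. A test of the difference itself called 4 genes.

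Whether the inhibitor altered the 2-day response was tested as the difference of the log2 changes with and without it. edgeR called 4 genes (0.0212%), 3 with a less negative response on the inhibitor (0.0159%) and 1 lower (0.0053%). An unadjusted p under 0.05 was reached by 996, and DESeq2 called 60 and limma on log2(TPM + 1) 1. EIF3B changed by -2.65 without the inhibitor and -1.44 with it, a difference of 1.20 ± 0.20. CAD changed by -1.68 and -0.68, and PCNA, the sliding clamp of replication, by -1.09 and -0.26. ENSG00000225339 was the lower one, and stood at 48.5 to 57.9 CPM in the 4 libraries here against 0.765 to 7.61 CPM in the 2-day libraries without the inhibitor. This comparison sets libraries titled in hours against libraries titled in days, so inhibitor and library set cannot be told apart in it. No gene was called when any of the 4 inhibitor libraries or clone 7 was left out, or without the clone block. For the E2F and replication list the medians were -1.08 without and -0.46 with the inhibitor, and for the interferon-stimulated list 0.71 and 0.63.

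From 2 to 4 days on the inhibitor the response of interferon-stimulated genes grew. The difference of the log2 changes was called for 23 genes (0.122%), all of them with a larger change at 4 days, and 19 of these stand in the interferon-stimulated list. The median of that list was 0.63 at 2 days and 2.06 at 4 days. Of its 71 tested members 11 and 67 were called higher, against 0.551 and 7.06% of all genes. The 4-day groups hold 3 clones and the 2-day groups 2, so the counts of calls differ in power. IFI6 stood at 11.3, 12.2 and 11.4 CPM in the 4-day controls of clones 1, 7 and 9 and at 444, 444 and 337 CPM with IAA, a change of 5.13 against 2.12 at 2 days. IFIT1 changed by 4.21 against 1.40 and ISG15 by 3.33 against 1.18. USP18 and OAS3, not called at 2 days, changed by 2.81 and 2.43 at 4 days. RIGI moved less between the times, from 1.90 to 2.39. The differences were called for 11 to 20 genes when a 2-day library was left out and for 14 without clone 7. Library set differs with time here as well. The lysosome and p53 lists had nearly equal medians at both times, 0.38 and 0.39 for lysosome and autophagy and 0.35 and 0.30 for p53 targets.

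Against 1 day of IAA without the inhibitor, a contrast within the same library set in which time and inhibitor cannot be told apart, no difference was called by edgeR or limma, while an unadjusted p under 0.05 was reached by 222 genes and DESeq2 made 5 calls. With the spread taken from these 8 libraries 141 were called. At 1 day the interferon-stimulated list had a median of 0.20 with 2 members called, the mitosis list -0.04 with none called by edgeR and the p53 list 0.01. EIF3B, MRPS35, CAD and MYC already stood at -1.52, -1.22, -0.96 and -1.19 at 1 day, each a larger estimate than at 2 days with the inhibitor. The differences of the log2 changes were 0.08 ± 0.21, 0.16 ± 0.22, 0.28 ± 0.19 and 0.51 ± 0.22, and none was called. IFI6, IFIT1 and ISG15 stood at 0.39, 0.07 and 0.08 at 1 day.

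**Figure D5:**
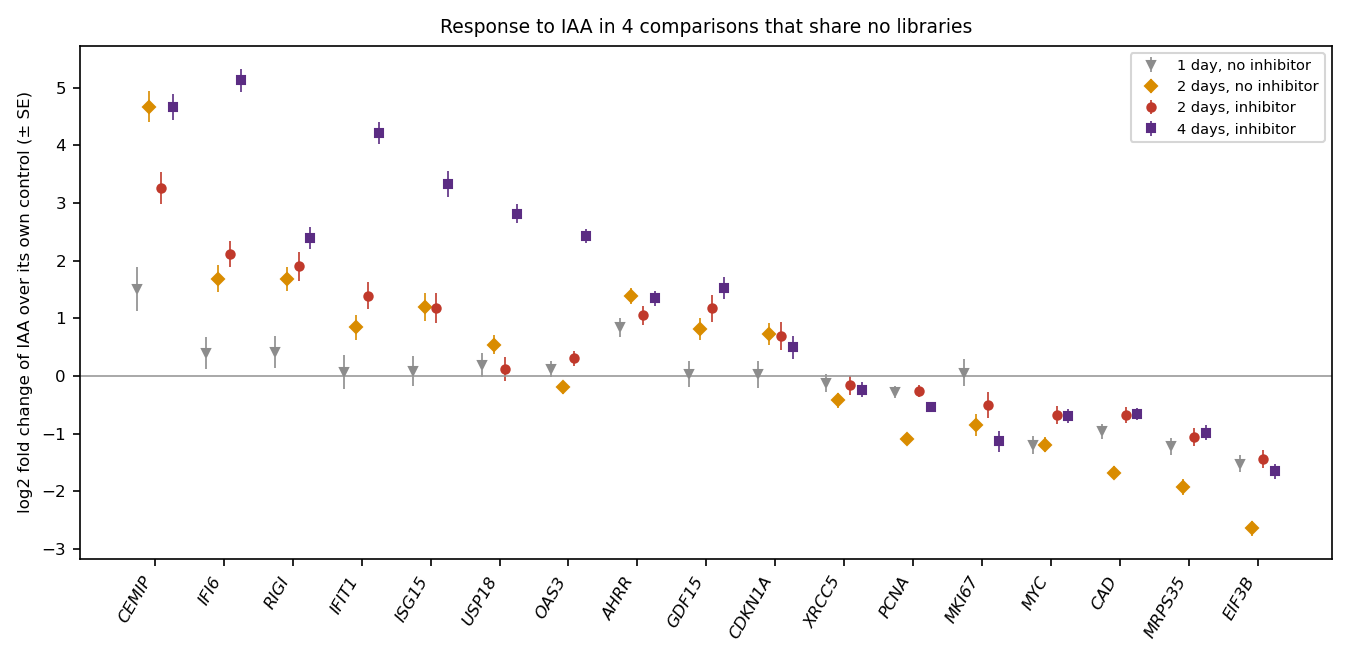
Log2 fold change ± SE of IAA over its own control for 17 genes in 4 comparisons that share no libraries: 1 day without inhibitor, 2 days without, 2 days with and 4 days with it. IFI6 goes from 0.39 at 1 day to 5.13 at 4 days on the inhibitor, while EIF3B is lowest at 2 days without the inhibitor, at -2.65.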

How the data were processed

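Poly-A RNA was sequenced with a TruSeq kit, per the labels' protocols. The authors deposited estimated counts and TPM per gene. The submitters' processing notes list Salmon 1.10.2, kallisto 0.50.0, DESeq2 and the GRCh38 build without saying what each was used for. The deposited estimated counts were rounded (15.2% of values were not whole) and tested with edgeR 4.0.16 in R 4.3.3: TMM factors, its own filter on low counts, 32 degron libraries in 12 groups with the clone as a block (16 residual degrees of freedom), and Benjamini-Hochberg adjustment over 18877 genes. A gene was called at an adjusted p under 0.05. SE is the log2 fold change over the square root of the F statistic. The 32 libraries were fitted together because 2 a group give little hold on the spread. They hold Ku80-AID clones with intact MAVS and MAVS-knockout Ku80-AID clones, the latter with DMSO or IAA.

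The clone pairs the samples because both arms come from the same clones. The same-clone correlation of deviations was 0.182. Within each arm clones 1 and 9 differed beyond counting noise (chi-square over degrees of freedom 8.41 on the inhibitor alone and 8.72 with IAA). These ratios include lasting differences between the clones, which the clone block takes out. Totals were 12.7 M to 19.2 M counts, so a gene at 1 CPM rests on few reads.

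Alternatives were fits without the clone block, with DESeq2 1.42.0 size factors or its test, without the filter, with limma 3.58.1 on the deposited TPM as log2(TPM + 1) or log2(TPM + 0.1), with fewer libraries, and without each library. The fit without clone 7 was added after seeing the data. Comparisons and 35 gene lists (900 genes) were chosen with earlier results of these data known. Genes were named by rule: the 12 largest called changes a direction with a symbol, at least 3 CPM in the higher group and the same direction in both clones; the 10 smallest p; up to 5 called members a list, or else the 2 smallest p; a fixed set; and the 5 smallest p a direction in each difference of responses. A fold against a group at 0 used 3 counts over the group. The fit was tested on simulated counts, with 100 genes changed 2-fold and 100 changed 4-fold. It called 52% of the former and 78% of the latter, and 7 genes that had not been changed. A gene not called may therefore still have changed. Promoters came from RefSeq (GRCh38.p14). Of the genes tested 2773 had only an Ensembl identifier. A few genes counted in the totals are not reported by name here.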

Additional observations from a re-analysis of the deposited data

Results flagged for a closer look

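The response to IAA on the inhibitor at 2 days differed from other responses for the genes below by a test of the difference itself in edgeR. With minus without the inhibitor at 2 days, the difference of log2 changes was 1.205 for EIF3B, 1.004 for CAD, 0.8316 for PCNA and -2.309 for ENSG00000225339. None of these 4 was called when any of the 4 inhibitor libraries was left out, and library set goes with the inhibitor in this contrast.

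At 4 days minus 2 days on the inhibitor, the difference was 3.283 for BST2, 3.155 for LAMP3, 3.011 for IFI6, 2.819 for IFIT1, 2.689 for USP18, 2.146 for ISG15, 2.125 for OAS3 and 1.705 for DDX60. It was 1.657 for HERC6, 1.559 for UBE2L6, 1.521 for PARP9, 1.489 for PLSCR1, 1.462 for SAMD9, 1.364 for SP110, 1.313 for PARP14 and 1.147 for DTX3L. CENPT, a kinetochore protein, had 1.129, and HLA-B, SP100, LAP3, TAP2 and STAT2 had 1.033, 1.032, 0.9503, 0.9482 and 0.9363. All of these except LAMP3, CENPT, HLA-B and TAP2 stand in the interferon-stimulated list. LAMP3, IFI6, IFIT1, USP18, OAS3, PARP9, PLSCR1 and PARP14 were called in all 4 fits that left out a 2-day library, and UBE2L6, CENPT and HLA-B in none.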

How the results depend on the processing

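Against the 165 calls for IAA on the inhibitor at 2 days (63% higher), edgeR made 78 without the clone block (71.8% higher), 352 without the low-count filter (52.8%), 4813 with only the 4 libraries compared (51.7%), 3319 with the 8 libraries titled in hours (51.5%) and 324 with the 10 inhibitor libraries (51.5%). DESeq2 made 514 (52.9%), and limma 66 on log2(TPM + 1) (78.8%) and 48 on log2(TPM + 0.1) (87.5%). Leaving out each library gave 6 to 31. For the difference with minus without inhibitor, 4 calls became 0 without the clone block, 78 without the filter, 60 with DESeq2, 1 and 0 with limma, 0 without clone 7 and 0 to 0 without each library. For 4 days minus 2 days, 23 calls became 20 without the clone block, 104 without the filter, 54 with DESeq2, 37 with the 10 inhibitor libraries, 14 without clone 7 and 11 to 20 without each library. For 2 days minus 1 day, 0 calls became 25 without the filter, 5 with DESeq2 and 141 with the 8 libraries titled in hours, and stayed 0 without the block and without each library. The cause of these shifts was not tested, beyond fewer libraries in some fits. Size factors of DESeq2 gave 167, 4, 23 and 0 calls, and without clone 7 the first count was 140. Among the 117 named genes, no called one changed sign under any setting run, while ACO1, CCND1, CXCL8, LAMP3, RB1, S100A10 and USP18, none of them called by edgeR, changed sign in limma or without a library. Without a library 37 to 51 of them lost the call, without the block 33, and with limma 32 or 34. DESeq2 gave no adjusted p for 10 of them, the called MEIOSIN included, and of the others called none lost the call. Leaving out libraries of the other comparisons was not run.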

Other observations

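Further called genes are named here after their values were seen. ITGA2, the collagen-binding integrin chain, rose by 0.79 on the log2 scale, NT5E, an ectoenzyme that makes adenosine, by 0.79, the tight junction protein OCLN by 0.64 and the laminin chain LAMB2 by 0.62. THSD7A, a membrane protein fixed for naming, read 0.0831 and 0 CPM in the controls of clones 1 and 9 and 1.13 and 1.14 CPM with IAA, and was not called (edgeR adjusted p = 0.0789).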
